A study of Drosophila melanogaster with 9 samples.

Results

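Kenyon cells (KC) were set against olfactory projection neurons (PN) of Drosophila melanogaster at 45 h after puparium formation (45 h APF), across the genes of the deposited expression table. A gene was kept when its mean over the KC, PN and double-negative (DN) columns of that stage was at least 1 FPKM (fragment counts divided by transcript length and library size), and 8603 of 16854 genes were kept. The measure throughout is the difference KC minus PN in log2(FPKM + 1), which understates the difference of genes with low values. KC were sorted for GFP, PN for tomato, and DN were the cells with neither label. All 3 populations came from flies of 1 genotype, with tomato from UAS:tomato under GH146:Gal4 over the CyO balancer and GFP from LexAop:GFP under MB247:LexA over the TM2 balancer. Brains of males and females were pooled and the optic lobes had been taken off. A label made by a driver covers the cells in which that driver is active, so each population is the part of its class that GH146 or MB247 marks. Each population at this stage is 1 pooled library, so there is no replicate, every comparison below is a size, and no test was made.

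The mushroom body, where flies learn odors, is built mainly from the processes of Kenyon cells. Projection neurons carry odor signals from the glomeruli of the antennal lobe to the calyx of the mushroom body, where each Kenyon cell samples a small and largely random set of them. At mid-pupal stages many axons and dendrites of both cell types have grown into their target regions and synapses are beginning to form. Cyclic AMP signalling in Kenyon cells is the textbook pathway of olfactory memory, and cell surface proteins with immunoglobulin or leucine-rich domains are the textbook molecules of partner choice.

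The columns summed to 1055098 in KC, 979179 in PN and 886258 FPKM in DN, and 7901, 8440 and 8646 genes reached 1 FPKM in them. The steps between low values fit about 24.1 M reads in KC, 29.2 M in PN and 32.1 M in DN, with 98.3%, 98.8% and 99.2% of 416, 250 and 612 low values within 0.1 of a whole read. That inference takes the effective length of a transcript to be 200 bases shorter than its exons. At a length of 2000 bases, 1 FPKM would then stand for about 43 reads in KC, 53 in PN and 58 in DN. In bulk samples such as these, fewer cells of a type and less RNA per cell cannot be told apart. Of the kept genes, 4572 share their locus with another line of the table, so reads may have been split between neighbours there.

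More genes stood far below PN in Kenyon cells than stood far above. At least 4-fold apart were 198 genes higher in KC (2.3% of the kept genes) and 607 lower in KC (7.06%), so that 75.4% of the 805 differences ran downward. The 2-fold counts were 780 higher (9.07%) and 1555 lower (18.1%). These 2 shares are the background for every 2-fold count of list members below. Past 3 on the log2 scale the counts were 90 higher and 227 lower. Past 4 they were 52 and 85, and past 5 they were 30 and 33, so the 2 counts drew nearer among the largest differences. Genes listed at 0 in 1 column are part of these counts, and their share past 3, 4 and 5 was not counted. Most genes differed little: 6268 (72.9%) lay within 2-fold, the median difference was 0.02, and Pearson's r between the log2 columns across genes, which are not independent replicates, was 0.867. Quantile normalization moved that median to 0.11 and the share of differences that ran downward to 64.4%. Of the genes past 4-fold, 63 of the 198 were listed at 0 in PN and 69 of the 607 at 0 in KC, and no fold is given for these. Just inside the filter was Mcm2, at 0.259 in KC, 0.819 in PN and 1.92 FPKM in DN, and just outside was CG13168, at 0.309, 1.34 and 1.34 FPKM.

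**Figure D1:**
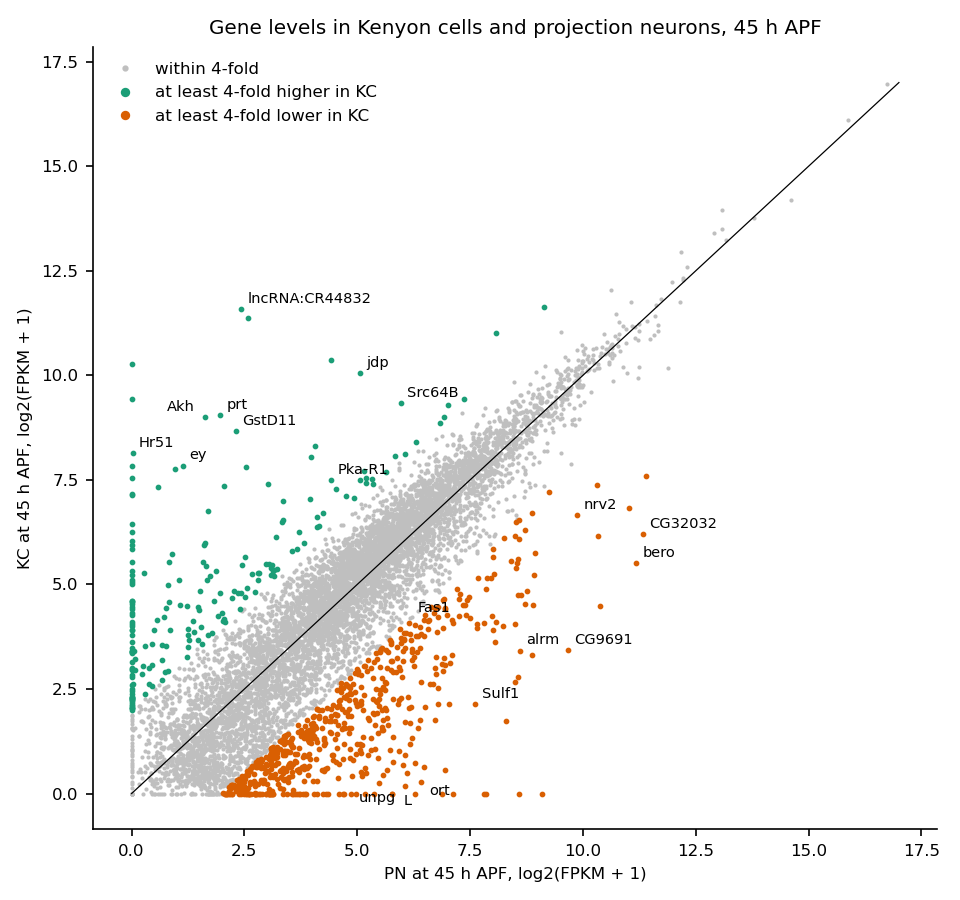
Levels of the 8603 kept genes as log2(FPKM + 1), with KC on the vertical axis and PN on the horizontal axis, 1 point per gene and 1 library per axis; the line marks equal values. The 198 genes at least 4-fold higher in KC lie above the band and the 607 lower ones below it, and the points on the axes are genes listed at 0 in 1 column.

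Most markers of the sorted classes stood on the side the labels give. The marker lists were chosen with earlier results of these data known, so this is no independent check of the labels. Of 20 Kenyon cell markers, all kept, 15 stood 2-fold or more above PN and 1 stood as far below, with a median difference of 1.56. Hr51, a nuclear receptor known for axon regrowth of mushroom body neurons, was at 281 in KC, 0.018 in PN and 2.46 FPKM in DN. The values of Hr51 correspond to about 12797 reads in KC and 1 in PN, the largest difference in this list at 8.11. The paired-type homeobox gene ey was at 228 FPKM in KC against 1.21 in PN (6.69), and its paralog toy at 35.3 against 15.7 (1.12). The nuclear factor gene dac was at 42.9 FPKM in KC against 4.48 in PN (3.0), and the MADS-box factor gene Mef2 at 49.7 against 4.71 (3.15). The actin regulator trio, the zinc finger gene ab and the RNA-binding gene mub differed less, by 1.59, 1.47 and 1.30. Temporal factor gene chinmo stood at 0.724 FPKM in KC against 0.965 in PN, and mamo at 3.08 and 2.58, so neither was past 2-fold. The adhesion gene Fas2, which marks mushroom body lobes, was at 35.0 FPKM in KC against 43.2 in PN. The member on the other side was sNPF, a neuropeptide gene known from adult Kenyon cells, at 12.9 in KC, 37.0 in PN and 52.0 FPKM in DN (-1.45).

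Of 12 projection neuron markers 10 were kept, of which 7 were 2-fold or more below PN and none above, with a median of -1.85. The zinc finger gene L (named Oaz in the table) was at 0.128 in KC, 66.0 in PN and 0.168 FPKM in DN (-5.89). Homeobox gene unpg was at 0.194 FPKM in KC against 43.9 in PN (-5.23), and C15, another homeobox gene, at 0.970 against 33.0 (-4.11). The POU factor gene acj6 of anterodorsal projection neurons was at 0.178 FPKM in KC against 7.04 in PN (-2.77), and Lim1 at 2.35 against 8.73 (-1.54), while DN had 19.2 FPKM of Lim1. The POU factor gene vvl was low in KC (0.629 FPKM) and PN (0.860) and at 4.09 FPKM in DN. Transmitter markers stayed within 2-fold, with ChAT, the acetylcholine synthase gene, at 14.8 FPKM in KC against 20.1 in PN. VAChT, the vesicular transporter gene, was at 2.14 and 0.896. Both share their locus with another line. In the adult both were lower in KC, with ChAT at 89.8 FPKM against 647.5 in PN and VAChT at 40.4 and 135.

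Glial genes were on the PN side as well. Of 18 glial markers, all kept, 13 stood 2-fold or more below PN and 2 as far above, with a median of -2.5 and a sum of 455 in KC, 2549 in PN and 1179 FPKM in DN. The astrocyte gene alrm was at 9.70 in KC, 388 in PN and 147 FPKM in DN, and the GABA transporter gene Gat of glia at 2.37, 82.4 and 60.2. The blood-brain barrier gene moody was at 1.08 in KC, 41.1 in PN and 5.42 FPKM in DN, glutamine synthetase Gs2 at 22.1, 417 and 204, and repo, the transcription factor of most glia, at 6.42, 29.9 and 12.3. On the KC side stood wrapper, a gene of cortex glia, at 49.0 in KC, 14.1 in PN and 43.0 FPKM in DN, and Tret1-1 at 1.78, 0.324 and 2.33. Cyp4g15 was at 196 FPKM in KC against 212 in PN, and no glial marker was listed at 0 in either. In the adult the same list summed to 234 FPKM in KC against 242 in PN. The part of glial RNA in the results that follow was not tested.

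Markers of other cell classes were examined in the same way. Markers of muscle (8 kept of 12) summed to 59.1 in KC, 108 in PN and 369 FPKM in DN, with 2 higher in KC and 1 lower. The lower one, Tm1, made up most of the sums in KC (49.3 FPKM) and PN (105). The 2 higher were Act87E, at 5.10 FPKM in KC against 0.0249 in PN, and Act57B, at 2.27 against 0.430. Markers of hemocytes and fat body (7 of 12) summed to 361, 204 and 164 FPKM, with Pxn, a peroxidase of the matrix, at 320 FPKM in KC against 152 in PN. The matrix gene Ppn of that list was on the other side, at 0.522 FPKM in KC against 13.9 in PN (-3.29). Of the hemocyte markers below the filter, Hml and eater were under 0.05 FPKM in KC and PN and He was listed at 0, while NimC1 was at 0.402 FPKM in KC against 0.611 in PN and srp at 0.624 against 0.0153. Of 12 photoreceptor markers 1 was kept, and the rhodopsin genes Rh3, Rh4 and Rh6 were listed at 0 in KC and PN. Also below the filter, trp was at 2.32 FPKM in KC and trpl at 1.47, both listed at 0 in PN. The rhodopsin gene ninaE was at 0.0594 FPKM in KC against 0.0491 in PN. Of 7 tracheal markers 3 were kept and none was past 2-fold. Markers of neurons with other transmitters had 9 of 10 kept, of which 4 were lower in KC and none higher. These were Gad1, the GABA synthase gene (2.37 FPKM in KC, 37.3 in PN, 49.3 in DN), Tbh of octopamine synthesis (1.71, 27.4 and 19.1), Trhn of serotonin synthesis (1.56, 9.48 and 6.14) and VGlut, the vesicular glutamate transporter (11.3, 38.9 and 108).

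**Figure D2:**
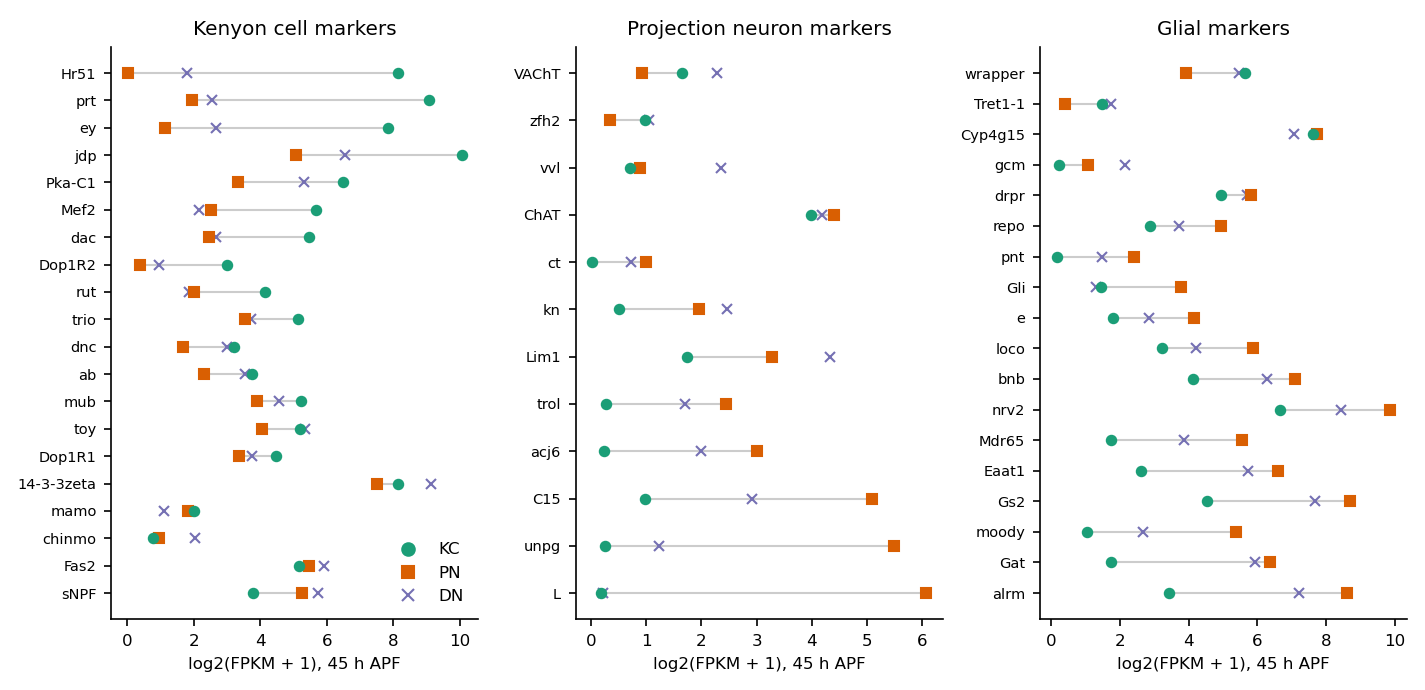
Levels at 45 h APF of the 20 Kenyon cell, 12 projection neuron and 18 glial markers as log2(FPKM + 1), with 1 circle (KC), square (PN) and cross (DN) per gene and genes ordered by the difference KC minus PN. The markers zfh2 and ct did not pass the filter; Hr51, prt and ey are far right in KC, L and unpg in PN, and most glial markers are lowest in KC and highest in PN.

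The 15 coding genes with the largest positive differences, under the terms that no value was 0, that the higher was at least 20 FPKM and that no other line shared the locus, were led by Hr51, already given. Next came Akh, the gene of adipokinetic hormone, a peptide hormone of energy stores, at 512 in KC, 2.07 in PN and 1.03 FPKM in DN (7.38). Markers of endocrine cells were not examined, and which cells of the KC sample carry Akh was not tested. Then came prt, a vesicular transporter gene known from the mushroom body, at 532, 2.89 and 4.86 FPKM (7.1), or about 25325 reads in KC and 167 in PN. Uncharacterised CG14075 was at 217, 0.946 and 6.54 FPKM (6.81), and Cpr65Ea, which encodes a cuticle protein, at 160, 0.511 and 0.928 FPKM (6.73). The glutathione transferase gene GstD11 was at 404 in KC, 3.98 in PN and 4.72 FPKM in DN (6.35), and jdp, a J-domain protein gene, at 1056, 32.4 and 92.0 FPKM (4.98). Vkor, a vitamin K epoxide reductase gene, was at 168, 7.17 and 8.79 FPKM (4.37), and SmydA-1, a SET and MYND domain gene, at 45.8, 0.779 and 11.2 FPKM (4.72). The remaining 6, CG30158, CG15082, CG32036, CG6701, CG15459 and ey, spanned 4.18 to 6.69. In DN, all 15 were nearer to PN than to KC on the linear scale.

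At the other end, bero, a gene of the Ly6 family of small membrane-anchored proteins, was at 44.5 in KC, 2318 in PN and 15.4 FPKM in DN (-5.67). The gene CG32032 was at 72.5, 2571 and 89.3 FPKM (-5.13), which corresponds to about 1523 reads in KC and 65463 in PN, and CG9691 at 9.73, 813 and 5.81 FPKM (-6.25). CG15201 had the lowest difference of the 15 named genes, at 2.34 in KC, 314 in PN and 3.40 FPKM in DN (-6.56). These 4 genes were high in PN alone, with KC and DN both far lower. The histamine-gated chloride channel gene ort was at 0.210 in KC, 84.4 in PN and 2.38 FPKM in DN (-6.14), or about 10 reads in KC and 4828 in PN. Prip, an aquaporin gene, was at 5.91, 378 and 17.6 FPKM (-5.78), and vir-1, a gene induced by viruses, at 5.39, 360 and 65.7 FPKM (-5.82). The lipid phosphatase gene wun2, which guides migrating germ cells in the embryo, was at 0.396, 67.2 and 1.63 FPKM (-5.61). Scgdelta, a sarcoglycan gene, was at 0.356, 46.4 and 12.4 FPKM (-5.13), and the homeobox gene hbn at 1.5, 73.4 and 16.8 FPKM (-4.90). L, unpg, CG14984, CG11294 and CG2145 made up the 15, from -5.89 to -4.91. DN was nearer to KC than to PN on the linear scale for all 15.

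Transcription factors of the homeobox class were mostly lower in Kenyon cells. Of 74 genes 45 were kept, and 30 of these were 2-fold or more below PN and 4 above, with a median of -1.86, where 18.1% and 9.07% of all kept genes were. Among the higher ones were ey, toy and the paired-type gene Vsx1 (9.12 FPKM in KC, 2.17 in PN). Beside unpg and C15, the lower ones included Drgx, at 0.477 FPKM in KC against 49.6 in PN (-5.10), and otp, at 0.328 against 33.6 (-4.71). The Iroquois genes ara, mirr and caup, neighbours on chromosome 3L, were at 1.05, 0.744 and 0.010 FPKM in KC and at 38.4, 28.8 and 7.18 FPKM in PN. The NK2-type gene scro was at 1.27 FPKM in KC against 32.4 in PN (-3.88), and Dll, a gene of limb and antennal identity, at 0.227 and 16.4 (-3.82). The highest KC levels among the 45 kept genes were those of ey, exd (42.5 FPKM in KC, 67.5 in PN) and toy. The glial gene repo is also a homeobox gene and is counted among the 30. With a pseudocount of 5 FPKM the count of lower genes was 18.

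Among 31 other kept transcription factors, 17 were lower in KC and 4 higher, with a median of -1.45. The higher 4 were Mef2, dac, ab and jdp, of which jdp was put in the list although its product is a J-domain protein. Sox102F was at 1.06 FPKM in KC against 32.1 in PN (-4.01), the proneural gene ato at 0.0808 and 9.21 (-3.24), and Fer1 at 14.7 and 82.6 (-2.41). Broadly used factors differed by less than 2-fold, with lola at 165 FPKM in KC against 108 in PN, da at 42.6 and 46.8, and pros at 8.53 and 12.4. Of 23 kept genes of steroid hormone response and nuclear receptors, 1 was higher (Hr51) and 10 were lower. The ecdysone receptor genes EcR (4.35 FPKM in KC, 3.86 in PN) and usp (64.7 and 44.8) were within 2-fold, and the early response genes Eip78C (11.9 and 64.3), Eip74EF (1.20 and 3.90) and br (0.547 and 2.21) were lower. The nuclear receptor gene svp was at 0.423 FPKM in KC against 12.1 in PN (-3.21). For the temporal identity genes the count was 1 higher and 3 lower of 10 kept, where 9.07% and 18.1% of all kept genes were. Imp, an RNA-binding gene of early-born neurons, was at 1.98 FPKM in KC against 0.309 in PN but below the filter. Its counterpart Syp was at 8.02 FPKM in KC against 27.2 in PN (-1.65). The medians of the hormone and temporal lists, -0.21 and -0.14, turned positive with quantile normalization and among genes with an unshared locus, and each under at least 1 other filter.

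Genes of cyclic AMP signalling were higher in Kenyon cells by count and by median, but not by summed FPKM (1170 in KC, 1390 in PN). Of 23 genes 19 were kept, of which 10 were 2-fold or more above PN and 3 below, where 9.07% and 18.1% of all kept genes were. The median was 1.27, and the lowest under the alternative settings of the processing was 0.18. The genes rut, dnc and Pka-C1 are also counted among the Kenyon cell markers. The subunits of protein kinase A led the list. The regulatory subunit gene Pka-R2 was at 42.2 in KC, 2.15 in PN and 9.47 FPKM in DN (3.78), and Pka-R1 at 179, 20.5 and 46.3 (3.07). The catalytic subunit gene Pka-C1 was at 88.7 in KC, 9.04 in PN and 38.7 FPKM in DN (3.16), and Pka-C3 at 6.81, 0.0507 and 0.841 (2.89). Adenylyl cyclases split: rut, the cyclase of associative learning, was at 16.6 FPKM in KC against 3.06 in PN (2.11) and Ac78C at 16.0 against 3.21 (2.02), while Ac76E was at 1.17 against 10.7 (-2.43) and Ac3 at 2.76 against 11.3 (-1.71). The phosphodiesterase genes dnc (8.26 FPKM in KC, 2.22 in PN), Pde8 (11.9 and 3.53) and Pde1c (18.9 and 7.14) were all higher in KC. Of the G protein genes, Gbeta13F was at 136 FPKM in KC against 55.7 in PN (1.27), Galphas at 49.9 and 84.0, and Ggamma1 at 504 and 745. The anchoring protein gene Akap200 was at 77.4 FPKM in KC against 418 in PN (-2.42), and CrebB, the target factor, at 4.46 and 3.16. Among the genes whose locus no other line shares, 5 were higher, and 11 of the 19 share a locus, Pka-R1, Pka-R2, rut and dnc among them.

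Kinases and translation regulators of memory gave 4 higher and 4 lower of 25 kept, where 9.07% and 18.1% of all kept genes were, and a median of 0.45 that turned to -0.30 among genes with an unshared locus. Src64B, which encodes a Src kinase, was at 644 in KC, 61.4 in PN and 39.7 FPKM in DN (3.37). The radish gene rsh, of anaesthesia-resistant memory, was at 14.7 FPKM in KC against 1.91 in PN (2.43), aPKC at 43.2 and 7.67 (2.35), and Pkc53E at 12.3 and 2.63 (1.88). On the lower side stood CaMKI, at 46.8 FPKM in KC against 144 in PN (-1.60), and the RNA transport gene stau, at 6.07 and 14.3 (-1.11). CaMKII (17.4 and 21.5 FPKM) and the CPEB gene orb2 (5.25 and 6.19) were within 2-fold.

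Cell surface genes of the immunoglobulin families were lower in KC in most members that differed. The dpr and DIP genes encode binding partners of which each neuron type carries its own set. All 32 were kept, and 16 were 2-fold or more below PN and 2 above, with a median of -1.02. DIP-eta was at 0.424 in KC, 33.0 in PN and 17.9 FPKM in DN (-4.58), DIP-theta at 2.98, 48.9 and 52.5 (-3.65) and DIP-epsilon at 1.44, 18.1 and 22.1 (-2.97). For dpr18 the values were 2.29, 65.5 and 118 FPKM (-4.34), for dpr11 1.56, 34.1 and 38.9 (-3.78), and for dpr2 3.38, 58.5 and 47.4 (-3.77). The family was not absent from Kenyon cells: dpr21 was at 307 FPKM in KC against 335 in PN, dpr19 at 155 and 161, dpr4 at 57.8 and 52.8, and dpr5 at 50.6 and 49.8. Higher in KC were dpr12, at 51.6 FPKM against 18.1 in PN (1.46), and DIP-kappa, at 44.4 against 20.4 (1.08). The known partner of dpr12, DIP-delta, was at 0.363 in KC, 0.664 in PN and 8.47 FPKM in DN. Among the dpr and DIP genes 19 share a locus, and of those with an unshared locus 4 were lower.

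The beat genes and their side receptors gave 14 lower and 1 higher of 22 kept, with a median of -1.24. Of the beat genes, beat-IIb was at 1.53 in KC, 38.5 in PN and 34.1 FPKM in DN (-3.97), beat-Ib at 0.904, 20.8 and 37.7 (-3.52), and beat-Ia at 0.779, 16.1 and 27.6 (-3.26). The partner of Beat-Ia, side, was at 0.904 in KC, 9.26 in PN and 18 FPKM in DN (-2.43). For beat-IIa the values were 4.17, 44.4 and 57.0 FPKM (-3.13), and side-IV, the partner of the Beat-II proteins, was at 9.05, 19.5 and 11.5 (-1.03). Higher in KC was side-VI, at 12.4 FPKM against 3.62 in PN (1.54), while beat-IV (40.9 and 55.9) was within 2-fold. The counts of lower genes were 8 with a pseudocount of 5 FPKM and 2 among genes with an unshared locus, since 17 of the 22 share one.

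**Figure D3:**
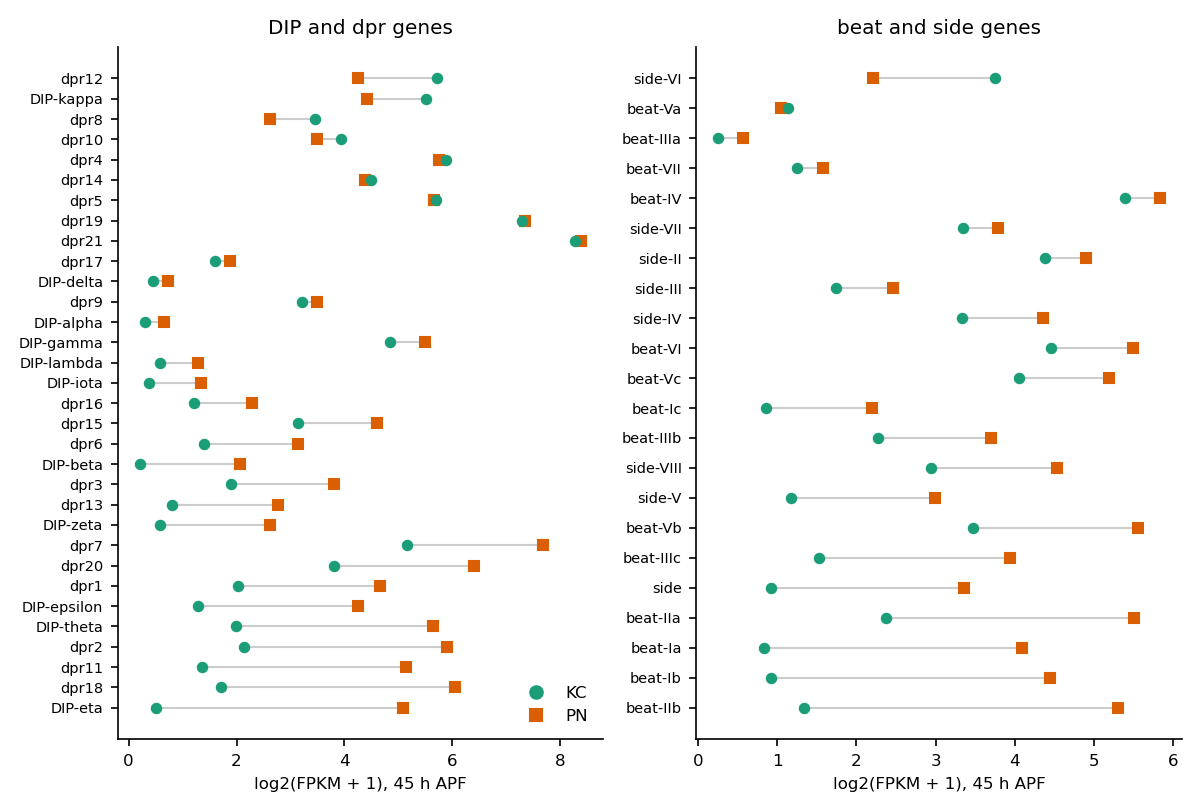
Levels at 45 h APF of the 32 dpr and DIP genes and the 22 beat and side genes as log2(FPKM + 1), with a circle for KC and a square for PN in each row and genes ordered by the difference KC minus PN. At the top dpr12, DIP-kappa and side-VI are higher in KC, and at the bottom DIP-eta, dpr18 and beat-IIb have KC circles far to the left of their PN squares.

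The other immunoglobulin adhesion genes had 18 of 30 kept members lower in KC and 2 higher, with a median of -1.65. The irre cell recognition genes hbs (2.12 FPKM in KC, 40.7 in PN), sns (0.469 and 8.87), rst (0.293 and 9.99) and kirre (0.359 and 2.85) were all lower. Borderless, bdl, was at 2.83 FPKM in KC against 42.3 in PN (-3.5), Fas1 at 18 and 153 (-3.02) and Fas3 at 9.57 and 44.3 (-2.10). The Dscam genes differed in degree, with Dscam2 at 9.22 FPKM in KC against 41.9 in PN (-2.07), Dscam1 at 5.07 and 11.4 (-1.04), Dscam3 at 15.2 and 25.0, and Dscam4 at 2.98 and 3.86. Lac, Cont and Nrg, which also belong to septate junctions, were lower, with differences of -1.85, -2.21 and -1.72, and wrapper and DIP-kappa were the 2 higher members. Of 8 kept cadherins 6 were lower and 1 higher: CadN, the classic cadherin of neurons, was at 0.820 FPKM in KC against 3.12 in PN (-1.18), the flamingo gene stan at 0.218 and 4.25 (-2.11), and Cals at 16.2 and 6.93 (1.12). The glial list named above lies on the same side as these families, with its sum of 455 FPKM in KC against 2549 in PN.

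Leucine-rich repeat and Toll genes gave 8 lower and 1 higher of 19 kept and a median of -0.23. The synaptic partner genes caps (11.8 FPKM in KC, 50.4 in PN) and trn (2.47 and 18.4) were lower, with differences of -2.0 and -2.48, and kek3 was at 49.0 against 18.5 (1.36). The Toll receptors known for projection neuron wiring stayed within 2-fold, with Toll-6 at 3.80 and 4.58 FPKM and Toll-7 at 19.5 and 9.72. The teneurins, which match partners at olfactory synapses, gave Ten-m at 1.23 in KC, 4.78 in PN and 11.3 FPKM in DN (-1.37), and Ten-a at 18.7, 12.5 and 13. Nlg2, a neuroligin gene, was at 46.6 FPKM in KC against 340 in PN (-2.84), Nlg3 at 21.0 and 12.4 and Nrx-1, their neurexin partner, at 28.6 and 17.5.

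Guidance genes gave 13 lower and 2 higher of 34 kept, with a median of -0.75. Of the receptors of Slit, robo2 was at 1.27 in KC, 24.9 in PN and 11.8 FPKM in DN (-3.51), robo3 at 3.77, 43.6 and 45.9 (-3.23) and robo1 at 6.77, 17.4 and 17.5 (-1.25). Their ligand gene sli was at 1.49 FPKM in KC against 9.18 in PN (-2.03). For netrin signalling, the receptor gene fra was at 1.53 FPKM in KC against 18.1 in PN (-2.92) and unc-5 at 13.3 and 38.2 (-1.46), while the ligands diverged, with NetA at 0.675 and 6.31 (-2.13) and NetB at 7.90 and 2.85 (1.21). Semaphorin genes Sema1a (1.10 and 2.40 FPKM) and Sema1b (20.1 and 18.2) were within 2-fold and Sema2a was lower (31.1 and 67.1, -1.08), and the plexin gene PlexA stood at 0.576 and 1.53. The ephrin pair Eph (6.65 and 5.54) and Ephrin (3.46 and 2.02) was within 2-fold, and comm, which sorts Robo away from the surface, was at 230 FPKM in KC against 150 in PN. Of the Wnt receptors, drl was at 106 FPKM in KC against 185 in PN and Drl-2 at 4.81 and 1.63 (1.14).

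Heparan sulfate genes had 5 lower and none higher of 14 kept, where 18.1% and 9.07% of all kept genes were. The sulfatase gene Sulf1 was at 3.41 in KC, 196 in PN and 25.1 FPKM in DN (-5.48). The glypican genes parted, with dally at 1.72 FPKM in KC against 12.8 in PN (-2.35) and dlp at 8.56 and 10.1. The core synthesis genes ttv (7.03 and 9.32) and sotv (125 and 87.6) were within 2-fold. In TGF-beta signalling, 5 of 15 kept genes were lower and none higher, beside the same shares of all kept genes. The 5 are the ligands gbb (11.7 FPKM in KC, 71.5 in PN), mav (0.197 and 6.54), daw (0.561 and 5.82) and Actbeta (4.54 and 11), and the inhibitor Fs (1.16 and 5.67). Receptors and Smads were within 2-fold, such as babo (2.66 and 3.01), wit (33.9 and 34.8) and Smox (72.0 and 46.4). For the actin list the counts were 2 higher (trio and the phosphatase gene ssh, 34.3 and 12.7 FPKM) and 5 lower of 24, near the shares of all kept genes. Rac1 was at 254 and 209 FPKM, and its relatives Rac2 (1.24 and 18.3) and Mtl (11.2 and 61.8) were lower.

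Transmitter genes past 2-fold included transporters and enzymes of synthesis. Besides prt, DAT, the dopamine transporter gene, was higher, at 207 in KC, 34.4 in PN and 41.0 FPKM in DN (2.56), and 8 of the 18 kept genes were lower, namely the transporter genes Gat, Eaat1 and VGlut and the enzyme genes Gs2, Gad1, Tbh, Trhn and Ddc, of which Gat, Gs2 and Eaat1 are glial markers. The tyrosine hydroxylase gene ple, of dopamine synthesis, was at 0.167 FPKM in KC against 0.113 in PN. Receptor genes for amines gave 4 higher and 1 lower of 18 kept. The 4 were Dop1R2 (6.97 FPKM in KC, 0.305 in PN, 2.61), Dop1R1 (21.3 and 9.37, 1.11), Dop2R (3.5 and 0.866, 1.27) and the octopamine receptor gene Oamb (36.1 and 9.02, 1.89), receptors known in the mushroom body. Lower was Octbeta2R (0.544 and 2.78, -1.29). The median of that list was -0.19, and it turned positive with quantile normalization and among genes with an unshared locus.

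Of 9 kept nicotinic receptor genes, which receive the acetylcholine of projection neurons, 3 were lower in KC and none higher. The lower subunits were nAChRalpha3 (0.30 FPKM in KC, 2.73 in PN), nAChRalpha7 (9.34 and 26.8) and nAChRalpha6 (1.90 and 5.39). The most abundant subunits in KC, nAChRbeta2 (320 and 391 FPKM) and nAChRalpha2 (278 and 169), were within 2-fold. Among 18 other fast transmitter receptors 2 were higher and 5 lower, where 9.07% and 18.1% of all kept genes were. The kainate-type gene Grik was at 20 FPKM in KC against 1.8 in PN (2.91) and GluRIB at 8.85 and 3.5 (1.13). Lower were ort, GABA-B-R3 (0.856 and 13.7), CG8916 (0.373 and 8.02), Neto (0.409 and 9.19) and the glutamate-gated chloride channel gene GluClalpha (12.4 and 50.8). The GABA-A receptor gene Rdl was at 14 FPKM in KC against 26.4 in PN, within 2-fold.

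Peptide genes went both ways, with 6 higher and 12 lower of 30 kept. Next to Akh, the higher ones were Crz, the corazonin gene (20.6 FPKM in KC, 0.684 in PN, 23.7 in DN), Lk, the leucokinin gene (26.7, 2.86 and 2.27), spab (168, 39.9 and 99.0), Ptth (2.84, 0.901 and 3.04) and NPF, which was listed at 0 in PN. The lower ones were led by Capa (11.3 FPKM in KC, 262 in PN, 45.2 in DN), Tk, the tachykinin gene (0.781, 24.6 and 23.1), Ms, the myosuppressin gene (2.52, 49.5 and 48.0), and CCHa1 (0.506, 13.1 and 8.45). Their receptors gave 18 lower and 4 higher of 35 kept, with a median of -1.0. The receptor of short neuropeptide F, sNPF-R, was at 0.226 in KC, 15.2 in PN and 10.5 FPKM in DN (-3.73), and TkR86C at 1.30, 18.5 and 12.6 (-3.08). Higher in KC were the relaxin-type receptor gene Lgr3 (10.9 and 0.370, 3.12), the bursicon receptor gene rk (13.5 and 1.61, 2.47), ETHR, the receptor of ecdysis-triggering hormone (47.6 and 14.3, 1.67) and AstA-R2 (1.85 and 0.019, 1.49). AkhR, the receptor of the Akh peptide, was listed at 0 in KC and PN.

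The pan-neuronal list had 2 higher and 4 lower of 15, where 9.07% and 18.1% of all kept genes were, with elav at 16.0 FPKM in KC against 12.3 in PN, nSyb at 156 and 230, and brp, the active zone gene, at 7.08 and 6.98. Higher was Appl, the fly APP gene, at 83.4 FPKM in KC against 16.8 in PN (2.25). Vesicle release genes gave 4 higher and 7 lower of 31: Rbp, of the active zone, was at 24.6 FPKM in KC against 3.64 in PN (2.46), and the SNARE genes Syx1A (8.84 and 31.6) and Syb (18.4 and 126) were lower. Among potassium channels 3 of 21 were higher and 4 lower, a share of lower genes near the 18.1% of all kept genes, with Elk at 35.7 FPKM in KC against 2.33 in PN (3.46), KCNQ at 8.40 and 1.8 (1.75), and the inward rectifiers Irk3 (21.7 and 162, -2.85) and Irk2 (10.2 and 42.3, -1.96). For sodium, calcium and leak channels the count was 1 higher and 4 lower of 22, again near that share, with unc80 at 18.5 FPKM in KC against 6.05 in PN (1.47) and cac, the presynaptic calcium channel gene, at 4.31 and 10.1 (-1.06). The median of the potassium channels, -0.16, and that of the sodium, calcium and leak channels, -0.26, turned positive with quantile normalization.

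Junction genes were mostly lower in KC, as were the glial markers, and Gli, moody, Mdr65 and nrv2 stand in both lists. Of 22 kept genes of septate junctions and the blood-brain barrier 17 were at least 2-fold lower and 2 higher, with a median of -1.70. The sodium pump subunit genes nrv2 (100 FPKM in KC, 936 in PN, 346 in DN) and Atpalpha (160, 456 and 333) and the claudin gene sinu (7.95, 63.1 and 14) were lower. The 2 higher were cora (279, 65.7 and 55.1 FPKM) and scrib (62.6, 13.1 and 13.4), a polarity gene with a known part in forgetting. Of 5 kept innexins, which form gap junctions, 4 were lower: Inx3 (with a difference of -3.72), Inx2 (3.82, 54.5 and 22.5), ogre (14.5, 119 and 53.2) and the neuronal shakB (1.26, 6.58 and 5.25). Inx2 and ogre are known from glia of the blood-brain barrier. In the Notch pathway 6 of 13 were lower and 2 higher. The receptor gene N (0.359 FPKM in KC, 3.78 in PN), its modifier fng (3.82 and 40.0) and the targets E(spl)mbeta-HLH (7.40 and 123) and E(spl)m3-HLH (2.77 and 40.4) were lower, and sca (338 and 77.8, 2.10) and the ligase gene mib1 (68.1 and 27.4, 1.28) were higher. Of the Ly6 genes 11 of 19 were lower, with CG31676 at 70.8 FPKM in KC against 1295 in PN (-4.17) after bero, and CG31675 was higher (18.4 and 7.54). Enzymes of glutathione and xenobiotic metabolism had 27 lower and 5 higher of 55, with GstS1 at 25.7 and 375 FPKM and GstD3 at 36.6 and 483, against GstD11 on the other side. The kept cell cycle genes had 7 lower and none higher of 15, at low levels, such as Cdk1 at 0.0939 FPKM in KC against 8.80 in PN.

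Among housekeeping groups, none of 85 kept cytosolic ribosomal protein genes was past 2-fold, with a median of 0.00 and a range of -0.71 to 0.45. Mitochondrial ribosomal proteins (73 kept, 1 lower, median 0.33), oxidative phosphorylation (68 kept, 2 lower, median 0.15) and the proteasome (32 kept, 1 lower, median 0.37) had few members past 2-fold. The proteasome gene past 2-fold was Rpt6R, at 0.564 FPKM in KC against 5.31 in PN. None of 19 heat shock genes was past 2-fold, although their sums were high, at 59250 FPKM in KC against 51540 in PN. Subunits of the vacuolar proton pump were mixed, with Vha68-2 at 9.48 FPKM in KC against 79.2 in PN against VhaAC45RP at 1188 and 566. Of the 19 kept, 5 were lower and 1 higher, where 18.1% and 9.07% of all kept genes were.

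**Figure D4:**
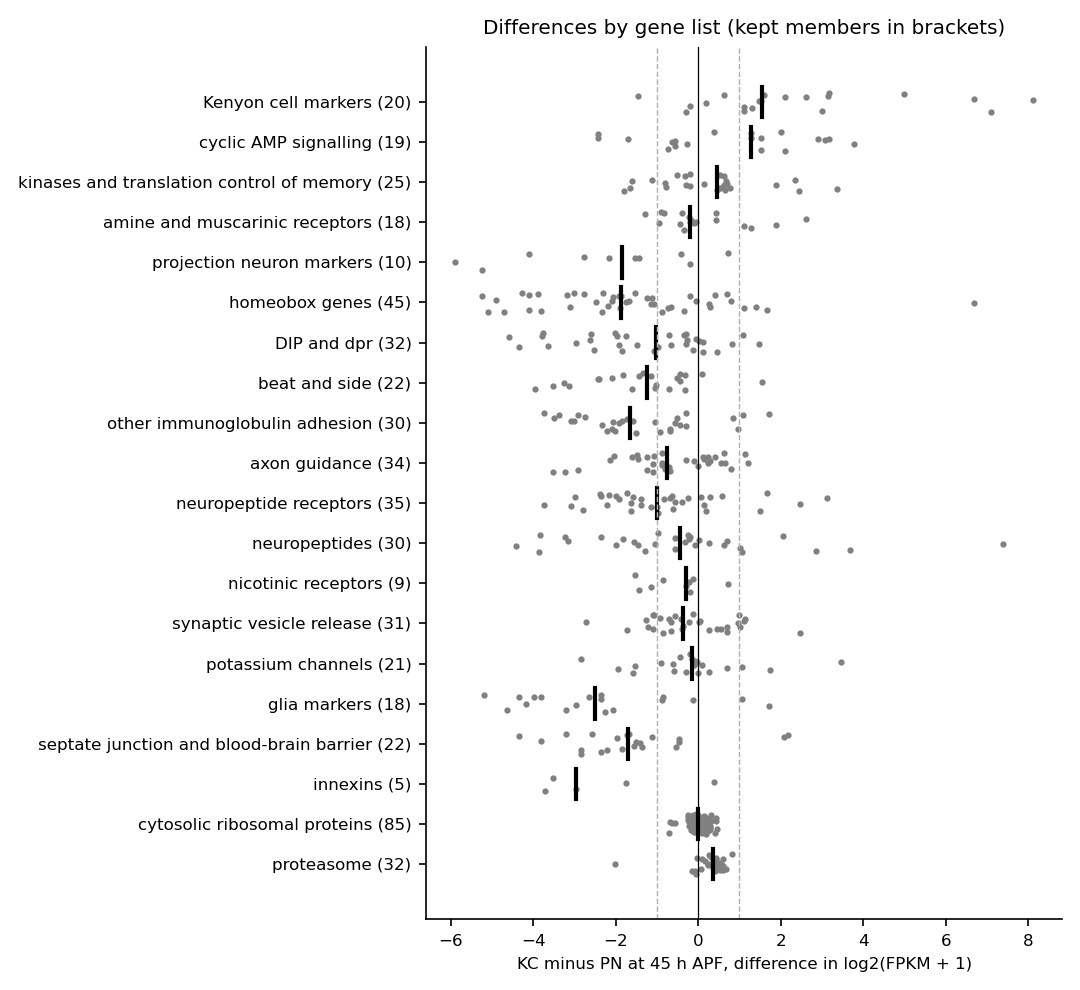
The difference KC minus PN in log2(FPKM + 1) at 45 h APF for the kept members of 20 gene lists, with 1 point per gene, a bar at the median and dashed lines at 2-fold. Kenyon cell markers and cyclic AMP genes have medians above 1, homeobox, immunoglobulin, glial, septate junction and innexin genes have medians below -1, and cytosolic ribosomal proteins cluster at 0.

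Noncoding genes took a larger share of the genes past 4-fold than of all kept genes. Of the annotated genes, 75.5% of those higher in KC and 86.5% of those lower were protein-coding, against 93.8% of all kept genes. Of the 198 higher genes 63 were listed at 0 in PN, and of the 607 lower ones 69 in KC. How many of these are noncoding was not counted. The part of listed zeros and shared loci in this share was not tested. The noncoding gene lncRNA:CR44832 (X chromosome, 5790952 to 5791536, dm6) was at 3062 in KC, 4.41 in PN and 62.0 FPKM in DN, the largest difference of any named gene at 9.15. On the other side stood lncRNA:CR45312 (4.55, 48.2 and 38.2 FPKM), lncRNA:CR45333 (5.34, 48.2 and 117) and lncRNA:mimi (103, 469 and 1453). By chromosome, the share of kept genes at least 4-fold higher in KC lay between 1.72% (X) and 3.90% (chromosome 4, 3 of 77), and the share lower between 5.72% (X) and 10.4% (chromosome 4, 8 of 77). Across 5 bins of exon length of coding genes with about the same number of genes each, the share higher was 1.49% to 2.30% and the share lower ran between 5.04% in the bin of shortest genes and 8.02% in the next to longest.

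Some of the genes past 4-fold lay side by side. Among coding kept genes in chromosome order, 34 of 148 higher genes (23.0%) stood in 13 runs of neighbours in the same direction, and 126 of 521 lower genes (24.2%) in 55 runs. These 148 and 521 genes are out of 8040 kept coding genes. In a random order more of the larger, lower group would be neighbours, so the 2 percentages cannot be compared directly. No expected share was computed. A run of 4 higher genes on chromosome 3R (12380869 to 12402902, dm6) held CG10035, GstD11, Sol1 (2659 FPKM in KC, 4.97 in PN, 8.80) and CG33098. Another run of 4 on 3R (30496751 to 30527037) held PH4alphaNE1, a prolyl hydroxylase gene at 86.3 FPKM in KC and listed at 0 in PN, CG31371, CG15539 and jdp. The longest run of lower genes, 6 on 3R (22080382 to 22356264), held CG13408, CG42390, SKIP, CG7084, CG34377 and rdhB, with differences of -2.03 to -4.44. Next was a run of 5 on 3R (11980704 to 12005473) with CG12224, CG3397, mfas, Tk and Ect3, the last at 0.647 FPKM in KC against 77.0 in PN (-5.57). On 2L, robo3 and robo2 flank NLaz, a lipocalin gene at 36.7 FPKM in KC against 261 in PN (-2.79), and DIP-eta and DIP-theta lie next to each other. Sol1, CG33098, CG15539, Ect3, SKIP, CG34377, Tk, robo2, DIP-eta and DIP-theta share a locus with another line, where reads may be split between neighbours.

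The same genes were then read in the adult columns, which are the authors' means over replicates, with 2 libraries per cell type in the labels. The effects of stage, sequencing machine and read length cannot be told apart, since pupal libraries were read for 75 bases and adult ones for 50. In the adult, KC stood at least 4-fold above PN for 223 genes (2.62% of 8515 kept) and as far below for 690 (8.1%). Of the 198 genes higher at 45 h APF, 156 were kept in the adult, and 66 of these (42.3%) were again at least 4-fold higher, 25 were 2- to 4-fold higher, 50 were within 2-fold, 6 were 2- to 4-fold lower and 9 were at least 4-fold lower. For the 607 lower genes, 414 were kept, 152 (36.7%) were again at least 4-fold lower, 78 were 2- to 4-fold lower, 164 were within 2-fold, 15 were 2- to 4-fold higher and 5 were at least 4-fold higher. Across the 7778 genes kept at both stages, Pearson's r of the 2 differences was 0.48, as a description over genes. Hr51 (126 FPKM in adult KC, 0.128 in adult PN), prt (439 and 0.291), ey (275 and 0.143) and GstD11 (756 and 2.03) kept differences past 4-fold, as did L (listed at 0 and 172), unpg (0.0501 and 28.6) and Sulf1 (1.19 and 143). Akh, by contrast, was at 1.39 FPKM in adult KC against 0.533 in adult PN, and CG14075 at 0.213 and 0.132.

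Several pupal differences on the PN side were small or absent in the adult values. The gene bero was at 1.74 FPKM in adult KC against 3.46 in adult PN, CG32032 at 2.41 and 1.61, CG9691 at 3.59 and 3.86 and ort at 0.459 and 0.884. Among glial markers alrm was at 8.04 FPKM in adult KC against 3.52 in adult PN, and the list median was -0.41 over 11 kept genes. The septate junction list had a median of 0.44 in the adult, against -1.70 at 45 h APF, and innexins 0.27 against -2.95. Surface families stayed below 0 at both stages: dpr and DIP genes had an adult median of -1.99 and beat and side genes one of -2.66. The pan-neuronal list also had a low adult median, -2.08 against -0.49 at 45 h APF, with 13 lower and 0 higher of 15. In the adult, 1696 of all 8515 kept genes were 2-fold or more lower in KC. The part of this pan-neuronal difference in the other adult list medians was not tested. Homeobox genes had an adult median of -1.53, with 26 lower and 5 higher of 45 kept. Some of those named above were low in both adult columns, such as hbn (0.563 FPKM in adult KC, 0.131 in adult PN) and Dll (0.146 and 0.298). The cyclic AMP list had an adult median of -0.36, with 3 higher and 7 lower of 21, and Pka-C1 was at 279 FPKM in adult KC against 278 in adult PN, against 88.7 and 9.04 at 45 h APF. The peptide gene sNPF was at 1343 FPKM in adult KC against 8.68 in adult PN, on the opposite side from its pupal values. Mef2 was at 125 FPKM in adult KC against 112 in adult PN.

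**Figure D5:**
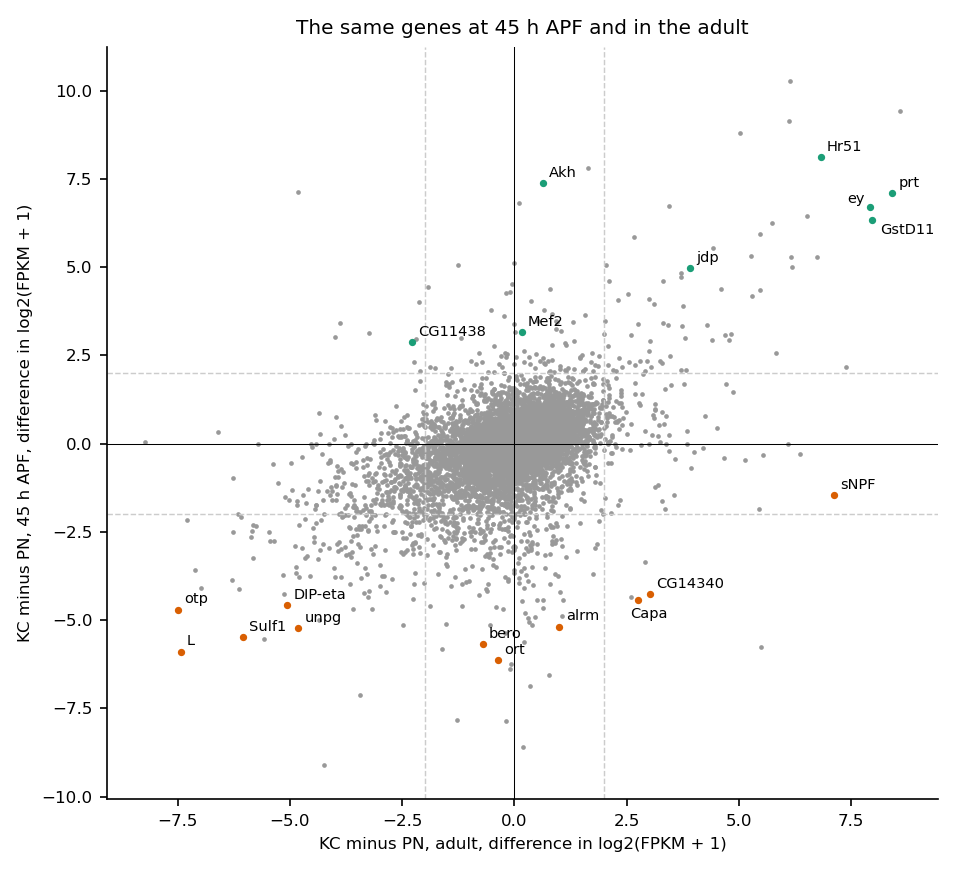
The difference KC minus PN in log2(FPKM + 1) at 45 h APF (vertical axis) and in the adult (horizontal axis) for the 7778 genes kept at both stages, with dashed lines at 4-fold and named genes coloured by the sign of the pupal difference. Hr51, prt, ey and GstD11 lie in the upper right corner, L, otp and Sulf1 in the lower left, and bero, ort, Akh and Mef2 lie near 0 on the adult axis.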

How the data were processed

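PolyA RNA of sorted Kenyon cells, projection neurons and double-negative cells was made into SmartSeq V2 libraries from about 1 ng of RNA, matched across cell types, with 25 M reads planned, per the labels' protocols. The authors deposited 1 table of FPKM values, with 1 column per pooled pupal library and the authors' mean for each adult cell type. The submitters' processing notes name TopHat, Cufflinks and the build dm6, and versions of both tools are not given in the sources used here. The libraries are not stated to keep strand, so overlapping genes on opposite strands cannot be told apart.

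Of 16859 lines, 5 had names turned into dates and were left out. Names were matched to Ensembl release 115, 12785 by symbol and 3967 by synonym, with 102 unmatched, and 99.0% of matched genes overlapped the deposited locus. Values were taken as log2(FPKM + 1). The filter kept genes whose 3 pupal columns averaged 1 FPKM or more, and the 3 adult columns were filtered likewise. Genes past 4-fold and list members past 2-fold on that scale were counted. With 1 library per group at 45 h APF there was no test. Gene lists (44) and marker lists (8) and the members described were chosen with earlier results of these data known. Named were the 15 coding and up to 3 noncoding genes with the largest difference in each direction (no value at 0, at least 20 FPKM in the higher column, locus unshared), up to 4 members per list and direction with others that complete a pathway, all cell type markers, up to 5 genes opposite at the stages, the longest runs of neighbours and the genes nearest the filter. Further list members were named for their roles after their values were seen. Alternatives changed the pseudocount, the filter, the scaling and the genes admitted. The counting step was tested on simulated data. Python 3.11.15, numpy 2.4.6, pandas 2.3.3 and matplotlib 3.10.9 were used.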

Additional observations from a re-analysis of the deposited data

Results flagged for a closer look

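Of the genes kept at both stages with no value listed at 0 in KC or PN, 2 differed at least 4-fold in opposite directions at 45 h APF and in the adult. The gene CG14340 was at 4.79 FPKM in KC against 110 in PN at 45 h APF (-4.26) and at 20.5 FPKM in adult KC against 1.68 in adult PN (3.01). The gene CG11438 was at 10.7 FPKM in KC against 0.585 in PN at 45 h APF (2.88) and at 0.394 FPKM in adult KC against 5.74 in adult PN (-2.27). The difference between the stages was not tested, since each pupal value is 1 library and each adult value 1 mean. A further 12 genes went opposite ways with a value listed at 0. Among them was Capa, at 11.3 FPKM in KC against 262 in PN at 45 h APF, at 5.75 FPKM in adult KC against listed at 0 in adult PN, and 11 of the 14 in all are noncoding.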

How the results depend on the processing

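No paired analysis was possible because each pupal population is 1 library and no result comes from a test. The 198 higher and 607 lower genes became 311 and 982 with a pseudocount of 0.1 FPKM, 96 and 259 with 5 FPKM, and 87 and 306 among genes with an unshared locus, a setting that admits fewer genes (4031) by construction. Quantile normalization took the share lower from 75.4% to 64.4% (249 higher and 450 lower) and moved the median of all genes to 0.11. With an unshared locus the glial markers lower in KC were 7 in place of 13, the cyclic AMP genes higher in KC 5 in place of 10, and the lower genes 4 in place of 16 for dpr and DIP, 2 in place of 14 for beat and side, and 5 in place of 18 for other immunoglobulin genes. A pseudocount of 5 FPKM gave 18 lower homeobox genes in place of 30, 8 beat and side genes in place of 14 and 7 neuropeptide receptors in place of 18, which were 9 with a filter of 5 FPKM. Among genes with no 0 in KC or PN, an alternative chosen after seeing the data, the counts were 135 and 538. The 34 named genes, chosen as extremes of this difference, stayed past 4-fold with both pseudocounts and all 3 scalings, and the other alternatives leave their values as they are by the terms of their choice. Over 10 alternatives, 889 of 1040 list counts stayed within 1.5 times. Counts that were 0 in both settings are among the 889 and were not counted apart. With 1 library per population at 45 h APF, no value here carries an error, and at the inferred depth a value of 0.018 FPKM can rest on 1 read.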
